A study of Mus musculus with 8 samples.

Results

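The genes described here belong to the YAP and TEAD pathway: the coactivators Yap1 and Wwtr1 (TAZ), the DNA-binding factor Tead1, the regulators Lats2, Amotl2 and Ajuba, and the target genes Ankrd1, Axl, Cyr61 (Ccn1) and Ctgf (Ccn2). They are the rows of the deposited count table whose gene name is one of these symbols, 10 of its 54532 genes, and 9 of the 10 had enough reads to be tested. PolyA RNA was sequenced from the corpus, the acid-secreting body of the stomach, of 4 mutant mice (Six2-Cre+/- PKAcaR fl/wt) and 4 control mice (Six2-Cre+/- PKAcaR wt/wt) on a mixed C57BL/6 and CD1 background, with 1 library per animal and no treatment. All 8 animals therefore carried Six2-Cre, and the groups differed in the floxed PKAcaR allele. PKAcaR is known as a form of the protein kinase A catalytic subunit that is active without cAMP once Cre has acted. Age and sex are not used here, and the labels do not say which cells of the corpus had recombined. Counts per gene do not separate transcripts of the PKAcaR allele from wild-type ones, so they do not check the genotype labels.

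In the Hippo pathway the MST kinases activate the LATS kinases, which phosphorylate YAP and TAZ and hold them in the cytoplasm. Unphosphorylated YAP and TAZ enter the nucleus, bind TEAD factors and switch on genes such as Ccn1, Ccn2 and Ankrd1. Among their targets are Lats2 and Amotl2, whose products in turn restrain YAP and TAZ. Protein kinase A is known from cultured cells to activate LATS. The activity of YAP and TAZ is set largely by phosphorylation and location, which RNA levels do not measure.

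Tead1 was the one gene of the 9 tested that passed the threshold with edgeR's quasi-likelihood test, higher in mutants at 50.3 ± 16.9 counts per 1e6 reads (CPM), against 29.9 ± 3.57 CPM in controls (SD, n = 4 each). Of all genes tested, 9.39% were called higher in mutants and 10.8% lower. Yap1 averaged 80.4 ± 2.97 CPM in mutants and 79.0 ± 4.44 CPM in controls. Ctgf and Cyr61 averaged 53.0 ± 47.9 and 51.7 ± 58.0 CPM in mutants, against 15.6 ± 2.48 and 14.5 ± 7.92 CPM in controls, and neither passed. Without mutant 2 their averages in mutants were 30.3 and 22.9 CPM. In 9 of the 10 genes the highest of the 8 libraries was that of mutant 2, as it was in 30.6% of all genes tested.

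TEAD factors bind the letters GGAATG, and the stretches before the transcription starts of 4 genes known as YAP and TEAD targets are shown because they hold those letters. Each is the 250 bases before the start, 5′ to 3′ on the gene's strand, from RefSeq on GRCm38.p6, with GGAATG or its reverse complement CATTCC in capitals. The stretches are chr3:145649986-145650235 (minus strand) for Cyr61, chr19:36119845-36120094 (minus) for Ankrd1, chr7:25788734-25788983 (minus) for Axl and chr9:102717554-102717803 (plus) for Amotl2, whose RefSeq start lies inside the gene's span in the count table.
Cyr61: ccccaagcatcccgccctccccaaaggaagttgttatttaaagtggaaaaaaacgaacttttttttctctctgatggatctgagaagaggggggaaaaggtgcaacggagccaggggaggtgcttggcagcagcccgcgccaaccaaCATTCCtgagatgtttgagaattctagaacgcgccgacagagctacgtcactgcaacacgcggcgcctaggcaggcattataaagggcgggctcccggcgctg
Ankrd1: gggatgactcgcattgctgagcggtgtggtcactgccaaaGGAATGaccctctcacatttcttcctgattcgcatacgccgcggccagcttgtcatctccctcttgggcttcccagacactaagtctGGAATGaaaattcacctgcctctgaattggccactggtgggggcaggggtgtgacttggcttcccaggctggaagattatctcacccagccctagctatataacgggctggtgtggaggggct
Axl: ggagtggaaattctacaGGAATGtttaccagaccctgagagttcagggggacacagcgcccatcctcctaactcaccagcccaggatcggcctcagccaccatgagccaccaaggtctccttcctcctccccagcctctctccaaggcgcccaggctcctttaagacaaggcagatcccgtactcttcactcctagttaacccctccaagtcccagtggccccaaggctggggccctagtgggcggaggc
Amotl2: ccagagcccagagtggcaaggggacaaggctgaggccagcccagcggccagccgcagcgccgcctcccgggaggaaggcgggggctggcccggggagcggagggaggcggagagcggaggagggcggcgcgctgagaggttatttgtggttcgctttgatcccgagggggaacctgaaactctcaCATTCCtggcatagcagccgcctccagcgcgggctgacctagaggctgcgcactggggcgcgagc
The letters stand 103 bases before the start of Cyr61, 210 and 123 bases before that of Ankrd1, 233 before that of Axl and 65 before that of Amotl2. RefSeq promoters were matched for 8 of the 10 genes, all but Tead1 and Ctgf. Of these 8 genes, 7 hold GGAATG on either strand in at least 1 promoter, the exception being Lats2. Of all 27025 genes with promoters of the same length, 14.4% do, and of their 32851 promoters 12.6% hold it. The cAMP response element TGACGTCA, which CREB binds after phosphorylation by protein kinase A, is in 0 of the 8 and in 1.77% of all genes (1.55% of promoters). The shorter form TGACG, which the full element contains, is in 2 of the 8 (Lats2 and Cyr61) and in 19.8% of all genes (17.8% of promoters). These matches describe the letters in the window.

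Library totals ran between 18184281 and 23814720 reads in mutants and between 18942308 and 22814152 in controls, so counting error is small for every gene but Ankrd1. CPM are counts over library sizes scaled by TMM, whose factors were 1.24 to 1.32 in mutants and 0.688 to 0.839 in controls. With unscaled column totals the log2 fold changes of all genes had a median of 0.76 in place of 0.07, a shift of 0.70. Transcripts of parietal cells (the acid-secreting cells) and chief cells (which make pepsinogen) summed to 98.7 to 2205 and 989 to 41273 CPM in mutants, against 14270 to 18212 and 298190 to 533680 CPM in controls. In whole tissue, fewer cells of a type and less RNA per cell cannot be told apart. The library of mutant 2 stood apart, with a correlation of log2 CPM with the other mutants of 0.839 to 0.881, where the other mutants had 0.977 to 0.981 among themselves and the controls 0.978 to 0.985. Keratin and other squamous transcripts of the forestomach summed to 624 CPM in mutant 3 and 238 CPM in control 3.

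**Figure D1:**
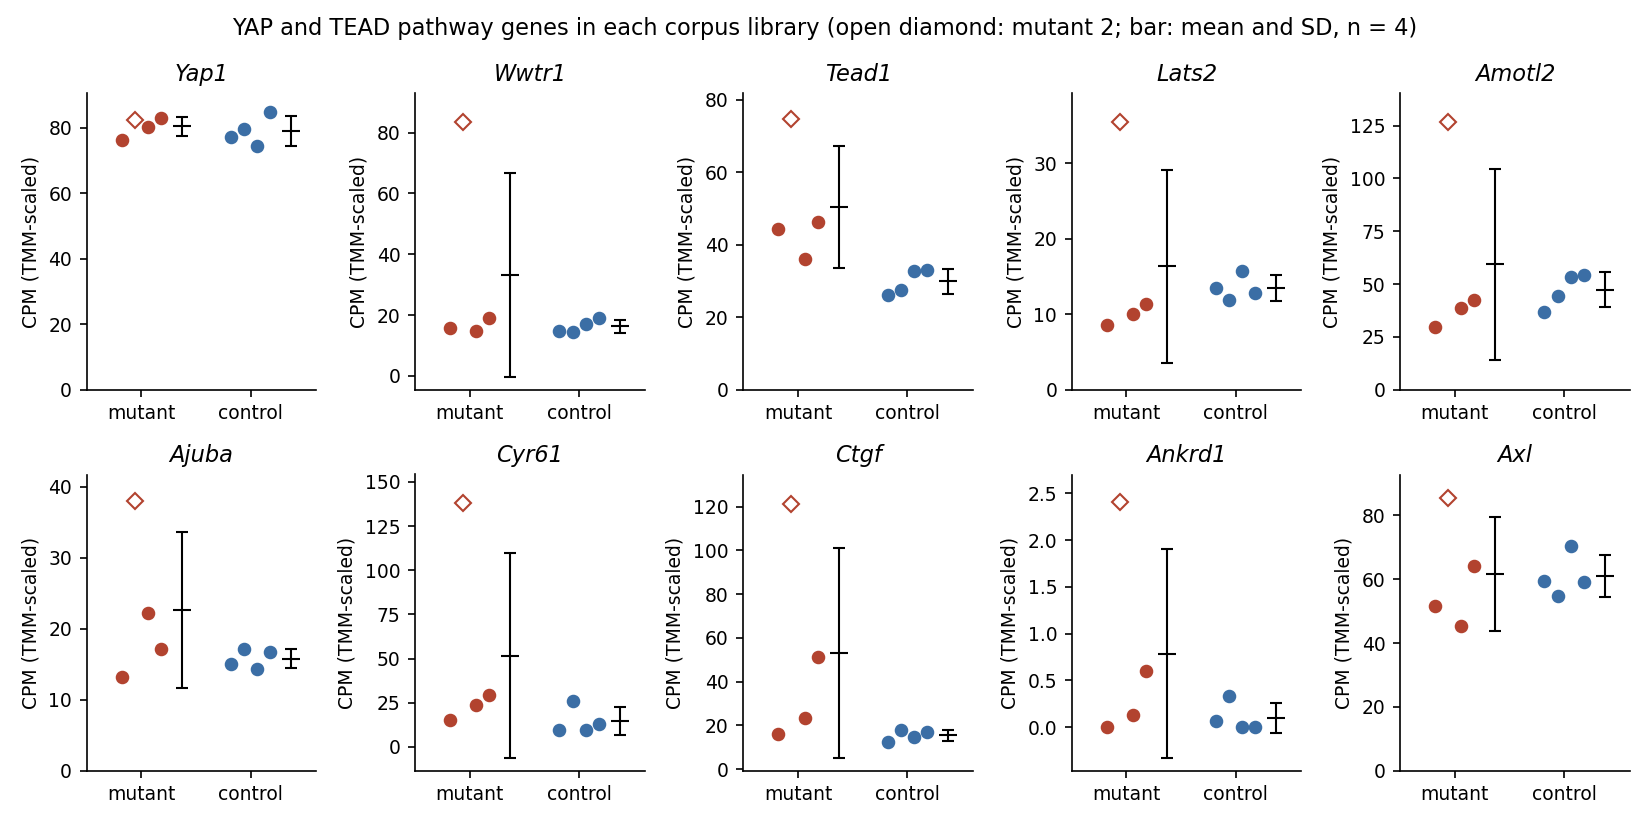
CPM (vertical axes, linear) of each of the 10 genes in the 4 mutant libraries, left, and the 4 control libraries, right, of every panel, with mutant 2 as an open diamond and a bar for mean and SD. Yap1 lies between 74.3 and 84.8 CPM in all 8 libraries, whereas mutant 2 is the highest point of the other 9 genes.

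Gene spans are those of the count table, which match GENCODE M21 on GRCm38 for 9 of the 10 genes, all but Ankrd1. Yap1 (chr9:7931999-8004596), the main coactivator of the pathway, had 76.4, 82.3, 80.1 and 82.9 CPM in mutants 1 to 4, against 77.2, 79.6, 74.3 and 84.8 CPM in controls 1 to 4. The groups overlapped throughout, and mutant 2 was not set apart. The log2 fold change (mutant over control throughout) came to 0.03, standard error (SE) 0.085, with all libraries (adjusted p = 0.848, edgeR quasi-likelihood test with Benjamini-Hochberg adjustment) and to 0.02, SE 0.094, without mutant 2. Scaled to the column total (reads per 1e6) it had 96.0 to 108 reads in mutants and 51.0 to 71.1 in controls, a log2 difference of 0.72 (adjusted p = 0.00193), which is 0.04 below the median of all genes on that scale.

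Wwtr1 (chr3:57455649-57575910) encodes TAZ, the close relative of YAP. It had 15.7, 83.4, 14.7 and 19.1 CPM in mutants, against 14.7, 14.6, 17.1 and 18.9 CPM in controls. Mutant 2 had 5.06 times the mean of the other mutants, which lay among the controls. The log2 fold change was 1.02 (SE 0.570, adjusted p = 0.231) with all libraries and 0.01 (SE 0.149, adjusted p = 0.959) without mutant 2.

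Tead1 (chr7:112679318-112906807), a TEAD factor that recruits YAP and TAZ to DNA, had 44.4, 74.7, 36.0 and 46.2 CPM in mutants, against 26.1, 27.5, 32.7 and 33.1 CPM in controls. All mutants lay above all controls, with mutant 3 nearest to them and mutant 2 farthest. Its log2 fold change was 0.75 (SE 0.222, adjusted p = 0.0464), and without mutant 2 it was 0.50 (SE 0.131, adjusted p = 0.0133), with mutants at 42.2 ± 5.43 CPM (SD, n = 3). On column totals the log2 fold change was 1.46 (adjusted p = 0.00155), 0.70 above the median of all genes. The call was close to the threshold: it was lost when mutant 1 (adjusted p = 0.0637), mutant 4 (0.0810) or control 1, 2, 3 or 4 (0.128, 0.120, 0.0940 and 0.0845) was left out, and when both libraries with squamous transcripts were (0.0644).

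Lats2 (chr14:57689662-57758388), a kinase that inactivates YAP and TAZ and is also their target, had 8.62, 35.5, 10.003 and 11.4 CPM in mutants, against 13.5, 11.9, 15.8 and 12.8 CPM in controls. Mutants 1, 3 and 4 were below every control and mutant 2 was above every control. With all libraries the log2 fold change was 0.28 (SE 0.446, adjusted p = 0.686). Without mutant 2 it was -0.43 (SE 0.163, adjusted p = 0.0624), so the sign depended on that library, and the change did not pass the threshold either way.

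Amotl2 (chr9:102716672-102733418), an angiomotin that binds YAP at junctions, had 29.5, 127, 38.5 and 42.6 CPM in mutants, against 36.8, 44.5, 53.6 and 54.1 CPM in controls. Mutant 2 was again the highest library, and the other mutants reached from below the controls into their lower range. The log2 fold change was 0.33 (SE 0.442, adjusted p = 0.626), and -0.36 (SE 0.165, adjusted p = 0.119) without mutant 2.

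Ajuba (chr14:54567472-54577558), a LIM protein that inhibits LATS kinases, had 13.2, 38.1, 22.2 and 17.1 CPM in mutants, against 15.0, 17.1, 14.3 and 16.8 CPM in controls. The groups overlapped, with mutants 2 and 3 above every control and mutant 1 below. The log2 fold change was 0.52 (SE 0.305, adjusted p = 0.254) with all libraries and 0.15 (SE 0.174, adjusted p = 0.554) without mutant 2.

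Ctgf (chr10:24595442-24598683), a secreted matrix-associated protein and one of the usual readouts of YAP, had 16.1, 121, 23.6 and 51.3 CPM in mutants, against 12.4, 17.9, 14.9 and 17.2 CPM in controls. Mutant 1 lay within the controls, and the other mutants above them. Ctgf had a log2 fold change of 1.77 (SE 0.586, adjusted p = 0.0666), and 0.96 (SE 0.379, adjusted p = 0.0944) without mutant 2. It passed without mutant 1 (log2 fold change 2.07, adjusted p = 0.0320), without mutant 3 (2.01, adjusted p = 0.0468) and with DESeq2 (adjusted p = 0.0113).

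Cyr61 (chr3:145646976-145649981), the related secreted protein and a further usual readout, had 15.4, 138, 23.6 and 29.6 CPM in mutants, against 9.29, 26.2, 9.77 and 12.9 CPM in controls. Control 2 lay among the mutants, and mutant 2 had 6.04 times the mean of the other mutants. The log2 fold change was 1.83 (SE 0.728, adjusted p = 0.109), and 0.66 (SE 0.403, adjusted p = 0.258) without mutant 2. DESeq2 passed it with all libraries (adjusted p = 0.0313).

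Ankrd1 (chr19:36111965-36119844), a nuclear ankyrin-repeat protein and a sensitive YAP target in cultured cells, was barely detected. It had 0, 59, 3 and 14 reads in mutants, against 1, 5, 0 and 0 reads in controls. Mutants 2 and 4 held nearly all of the reads, 76 in mutants and 6 in controls in all, and 17 in mutants without mutant 2. The gene did not pass the filter on low counts, and without that filter its fitted log2 fold change was 2.95 (SE 1.59, adjusted p = 0.291). A floor of 3 counts was on average 0.120 CPM in mutants and 0.189 CPM in controls.

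Axl (chr7:25757273-25788705), a receptor tyrosine kinase and YAP target that macrophages and fibroblasts also express, had 51.5, 85.5, 45.2 and 64.2 CPM in mutants, against 59.5, 54.9, 70.3 and 59.1 CPM in controls. The groups overlapped, with mutant 2 the highest library and mutant 3 the lowest. For Axl the log2 fold change was 0.02 (SE 0.198, adjusted p = 0.963), and -0.18 (SE 0.136, adjusted p = 0.328) without mutant 2.

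Of the 9 genes tested, 1 was called higher and 0 lower, where 9.39% of the 15862 genes tested were called higher and 10.8% lower (20.2% in either direction). At an unadjusted p under 0.05 there were 3, Tead1, Ctgf and Cyr61, and these are the 3 that DESeq2 called, where it called 24.2% of all genes. The 9 tested genes had a median log2 fold change of 0.52, against 0.07 for all genes. Without mutant 2 the median was 0.02, against 0.02 for all genes, and Tead1 was again the gene called, where 15.2% of all genes were called higher and 18.3% lower (33.5% in either direction). On column totals 7 of the 9 were called higher, with a median of 1.22 against 0.76 for all genes, and of all genes 59.5% were called higher and 4.55% lower on that scale (64.1% in either direction). The same 7 were called on column totals without mutant 2, where 64.2% of all genes were called higher and 7.02% lower (71.2% in either direction). Relative to the median of all genes on that scale, the log2 fold changes of those 7 with all libraries were 1.78 for Cyr61, 1.72 for Ctgf, 0.98 for Wwtr1, 0.70 for Tead1, 0.46 for Ajuba, -0.03 for Axl and -0.04 for Yap1. Without mutant 2 they were 0.62 for Cyr61, 0.94 for Ctgf, -0.01 for Wwtr1, 0.48 for Tead1, 0.12 for Ajuba, -0.20 for Axl and -0.01 for Yap1. The 2 not called there were Lats2 and Amotl2 (adjusted p = 0.0817 and 0.0710). All mutants lay above all controls in 1 of the 9 genes with TMM, where 14.2% of all genes did, 16.1% had all mutants below and 30.3% did one or the other. On column totals they did in 6 of the 9, where 53.9% of all genes did and 4.7% had all mutants below.

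**Figure D2:**
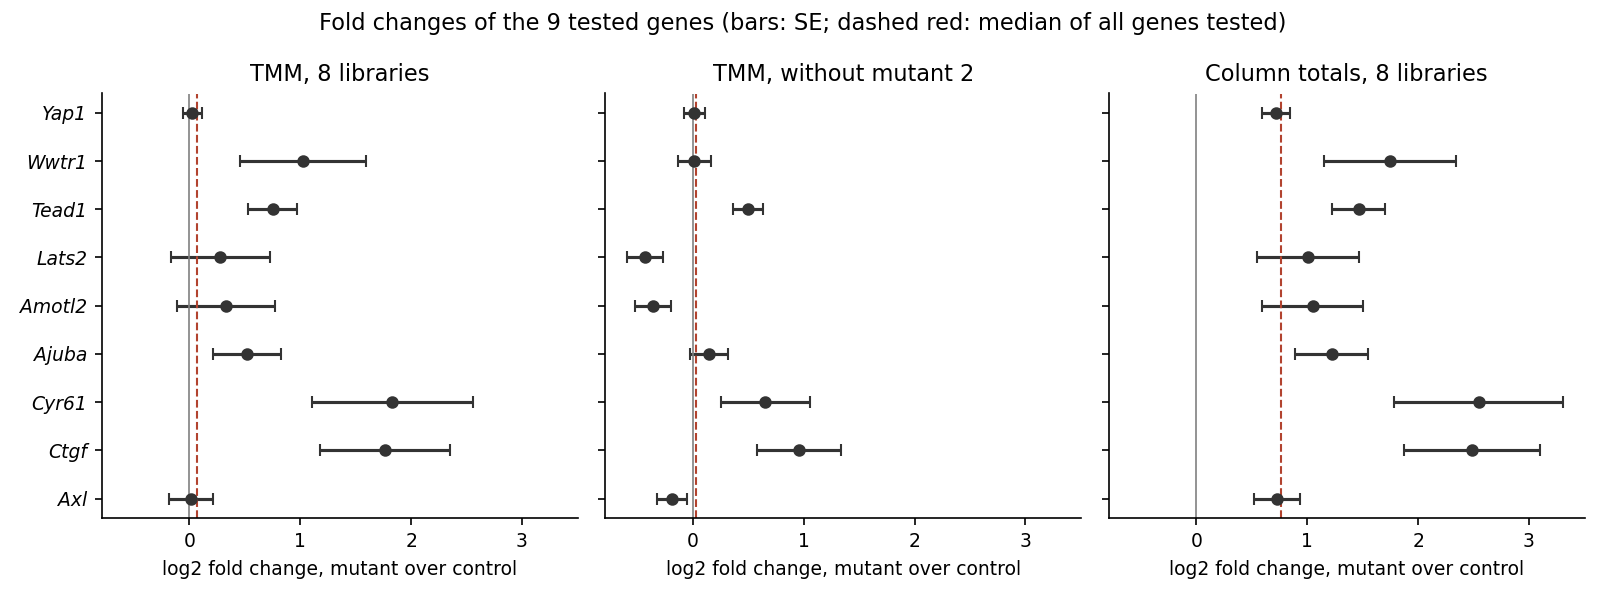
Log2 fold change of the 9 tested genes, mutant over control (horizontal axes), with SE as bars, for TMM scaling with all 8 libraries, TMM without mutant 2 and column totals. The dashed line is the median of all genes tested (0.07, 0.02 and 0.76), and Yap1 and Axl lie close to it in the panels with all libraries.

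Mutant 2 had 9.92 times the mean CPM of the other mutants for Ankrd1, 4.00 times for Ctgf, 3.54 times for Lats2, 3.44 times for Amotl2 and 2.18 times for Ajuba. Its ratio was smaller for Tead1 at 1.77, Axl at 1.59 and Yap1 at 1.03. It was the highest of the 8 libraries for 8 of the 9 genes tested, and for 30.6% of all genes tested. The same library had the highest level of each of 7 fibroblast markers, such as the collagen gene Col1a1, of 7 macrophage markers and of 6 endothelial markers. The fibroblast markers summed to 36152 CPM in mutant 2 and 1423 to 2212 CPM in the other mutants, against 1398 to 1584 CPM in controls. Macrophage markers summed to 814 CPM in mutant 2 and 128 to 226 CPM in the other mutants, against 127 to 160 CPM in controls. Endothelial markers reached 666 CPM in mutant 2 and 103 to 104 CPM in the other mutants, against 142 to 180 CPM in controls. Of these lists 1 fibroblast gene was called higher and no macrophage or endothelial gene was called, where 9.39% of all genes were called higher and 10.8% lower. Without mutant 2 the calls were 1 fibroblast gene higher and 1 lower, and 5 of the 6 endothelial genes lower. In that fit 15.2% of all genes were called higher and 18.3% lower. Smooth muscle markers went another way, with 12 of 12 called lower, where 10.8% of all genes were. They summed to 365 to 1019 CPM in mutants, against 3498 to 4624 CPM in controls. The 5 epithelial markers summed to 1719 CPM in mutant 2 and 5016 to 6447 CPM in the other mutants, against 4022 to 6360 CPM in controls. Among them Epcam did not follow that sum, with 478 CPM in mutant 2 and 337 to 402 CPM in the other mutants, against 163 to 177 CPM in controls. The part of these cell types in the levels of the 10 genes was not tested.

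**Figure D3:**
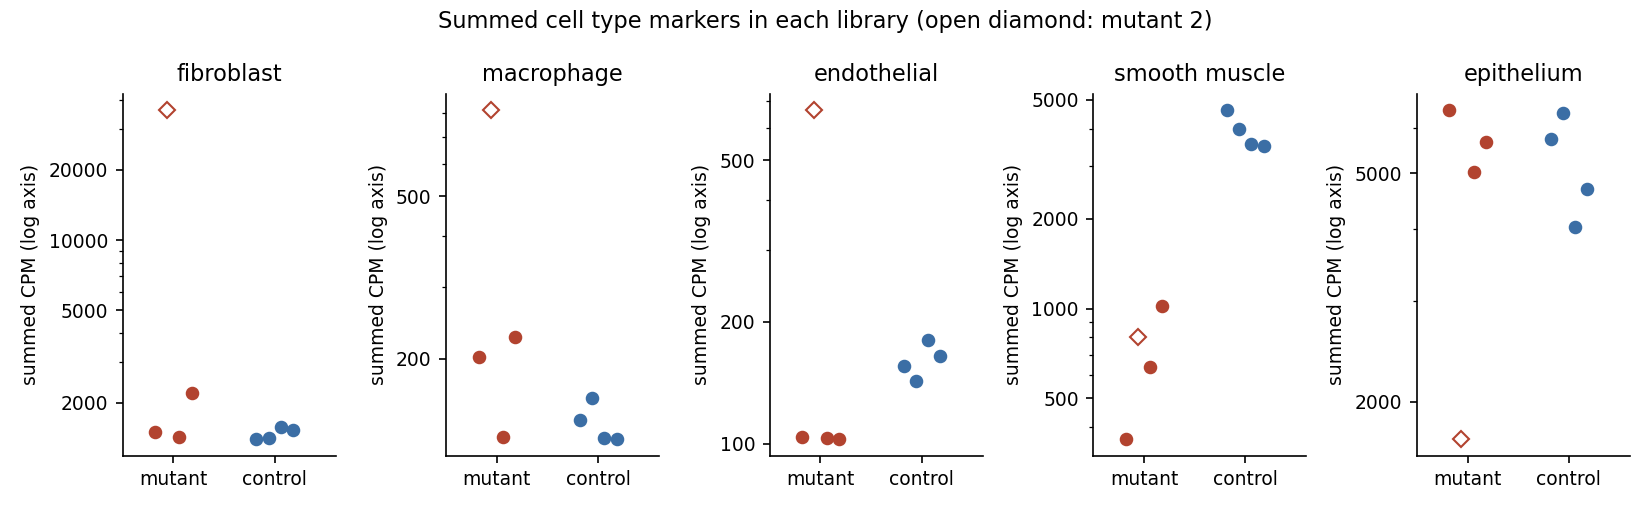
Summed CPM of the marker genes of 5 cell types (vertical axes, log scale) in the mutant libraries, left, and the control libraries, right, with mutant 2 as an open diamond. Mutant 2 is the highest point for fibroblast, macrophage and endothelial markers and the lowest for the summed epithelial markers.

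Levels of different genes were compared per length, as the deposited FPKM. In mutants the order was Cyr61 at 25.4 ± 28.5 FPKM, Ctgf at 18.4 ± 16.6, Axl at 12.2 ± 3.50, Amotl2 at 9.37 ± 7.14, Yap1 at 8.63 ± 0.310, Wwtr1 at 6.90 ± 6.97, Ajuba at 6.17 ± 2.98, Tead1 at 3.68 ± 1.23, Lats2 at 2.33 ± 1.82 and Ankrd1 at 0.442 ± 0.628 FPKM (SD, n = 4). Every pair of neighbours in that order overlapped between libraries. In controls Axl was first at 12.0 ± 1.34 FPKM, then Yap1 at 8.46 ± 0.450, Amotl2 at 7.45 ± 1.31, Cyr61 at 7.12 ± 3.85, Ctgf at 5.40 ± 0.842, Ajuba at 4.29 ± 0.353, Wwtr1 at 3.39 ± 0.430, Tead1 at 2.18 ± 0.263, Lats2 at 1.92 ± 0.245 and Ankrd1 at 0.0549 ± 0.0878 FPKM (SD, n = 4). There the ranges of Axl and Yap1, of Wwtr1 and Tead1, and of Lats2 and Ankrd1 did not overlap, and those of the other neighbours did. In the mutant order Ctgf stood above Axl only with mutant 2, while Cyr61 was first with that library and, by a smaller lead, without it. Without it the mutant means were 11.2 ± 3.48 FPKM for Cyr61, 10.6 ± 1.87 for Axl and 10.5 ± 6.42 for Ctgf (SD, n = 3), and these overlapped.

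A ratio of reads of 2 genes within a library does not depend on the scaling between libraries. The log2 ratio of Wwtr1 to Yap1 was -2.28, 0.02, -2.45 and -2.12 in mutants 1 to 4, against -2.39, -2.44, -2.12 and -2.16 in controls. Mutant 2 alone had about as many reads of TAZ as of YAP. Reads do not allow for gene length, 4779 bases for Wwtr1 and 9257 for Yap1. Per length mutant 2 had 17.3 FPKM of Wwtr1 and 8.83 FPKM of Yap1. The mean log2 ratios were -1.71 ± 1.16 in mutants and -2.28 ± 0.162 in controls (SD, n = 4 each), a difference of 0.57 (exact permutation test, two-sided, p = 0.543, adjusted over 3 ratios 0.971). Without mutant 2 the difference was -0.00.

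The log2 ratio of Ctgf to Cyr61 was 0.06, -0.19, -0.00 and 0.80 in mutants, against 0.42, -0.54, 0.61 and 0.42 in controls. The groups overlapped, with control 2 the lowest library. The means were 0.17 ± 0.433 in mutants and 0.22 ± 0.520 in controls (SD, n = 4 each), a difference of -0.06 (exact permutation test, two-sided, p = 0.857, adjusted p = 0.971).

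For the kinase pair Lats2 to Lats1 the log2 ratio was -2.44, -0.47, -2.24 and -1.90 in mutants, against -1.56, -1.82, -1.49 and -2.06 in controls. Mutants 1 and 3 were below every control and mutant 2 above every control. The difference of means was -0.03 (exact permutation test, two-sided, p = 0.971, adjusted p = 0.971), and -0.46 without mutant 2 (adjusted p = 0.343, exact permutation test). With 70 assignments of all 8 libraries the smallest p that these tests can give is 0.0286, before adjustment over the 3 ratios. Adjustment can only raise it, and the test without mutant 2 has fewer assignments.

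**Figure D4:**
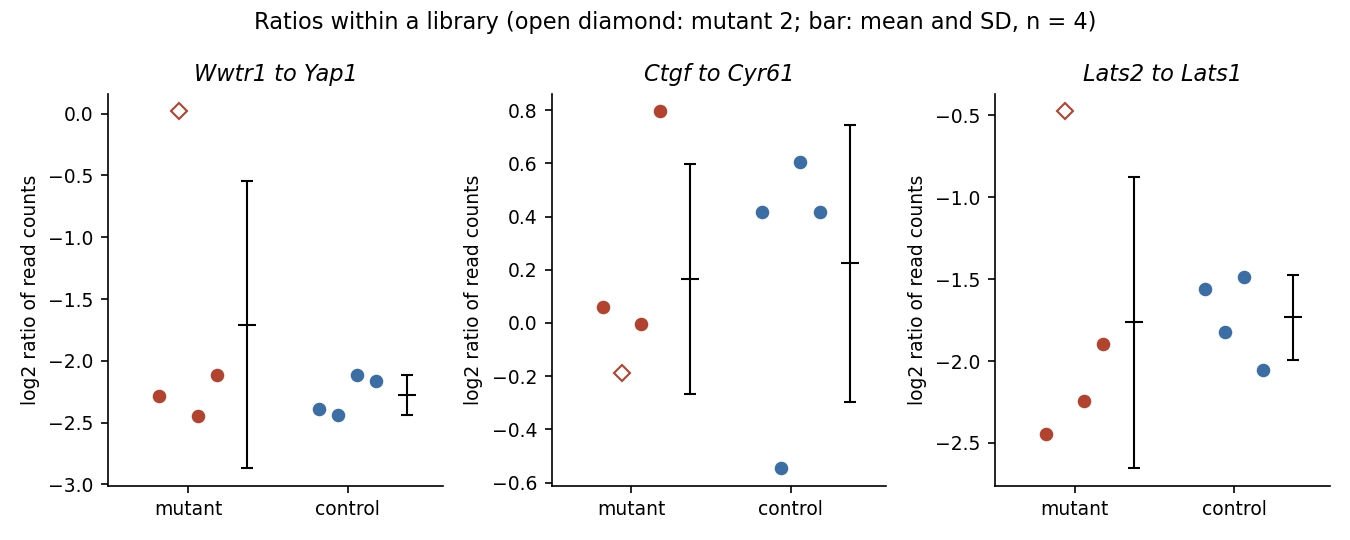
Log2 ratio of read counts within each library (vertical axes) for Wwtr1 to Yap1, Ctgf to Cyr61 and Lats2 to Lats1, mutants left and controls right, with mutant 2 as an open diamond and a bar for mean and SD. For Wwtr1 to Yap1, mutant 2 is at 0.02 and the other mutants are between -2.45 and -2.12.

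The kinase core and its activators were measured by 11 other genes, all tested, of which 1 was called higher and 0 lower, where 9.39% of all genes were called higher and 10.8% lower. Their median log2 fold change was 0.15, against 0.07 for all genes. Mob1a, the scaffold that activates LATS, rose to 132 ± 12.4 CPM in mutants, against 96.2 ± 11.1 CPM in controls (SD, n = 4 each), with a log2 fold change of 0.46 (adjusted p = 0.0311, 0.0182 without mutant 2). That call was lost when mutant 1 or 4 or control 1, 2 or 3 was left out (adjusted p up to 0.0880), and when both squamous libraries were (0.116). The MST kinase gene Stk4 had 44.0 to 49.8 CPM in mutants and 27.9 to 39.9 CPM in controls, which did not overlap (log2 fold change 0.40, adjusted p = 0.0586). Sav1, the scaffold of the MST kinases, had a log2 fold change of 0.82 (adjusted p = 0.0898), and passed without mutant 3 (0.99, adjusted p = 0.0473). Lats1 averaged 46.5 ± 2.86 CPM in mutants and 44.9 ± 5.88 CPM in controls (SD, n = 4 each), a log2 fold change of 0.05 (adjusted p = 0.773). On column totals all 11 were called higher, with a median of 0.86, where 59.5% of all genes were called higher and their median was 0.76.

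Among 11 junction and scaffold regulators 2 were called higher and 1 lower (9.39% and 10.8% of all genes). Their median log2 fold change was 0.13, against 0.07 for all genes, and without mutant 2 it was -0.08, against 0.02. Wtip, a LIM protein of the Ajuba family, had 64.8, 67.8, 62.4 and 95.9 CPM in mutants, against 35.1, 36.1, 35.5 and 29.9 CPM in controls. It rose in mutants with a log2 fold change of 1.09 (SE 0.155, adjusted p = 0.00325), and was called in all 8 fits that left out 1 library. Amot, the angiomotin that binds YAP, had 15.3, 15.1, 11.9 and 11.7 CPM in mutants, against 8.48, 4.28, 7.02 and 8.97 CPM in controls. Its groups did not overlap, and its rise (log2 fold change 0.91, SE 0.248, adjusted p = 0.0356) was lost when mutant 1 or 4 or control 1, 2 or 3 was left out (adjusted p up to 0.0947), and when both squamous libraries were (0.118). Wwc2, a KIBRA relative that activates LATS, had 39.8, 47.6, 35.2 and 41.1 CPM in mutants, against 48.0, 51.7, 70.4 and 71.3 CPM in controls. It fell relative to the other genes with TMM (log2 fold change -0.56, SE 0.163, adjusted p = 0.0441), while on column totals its log2 fold change was 0.15 (adjusted p = 0.449), which is 0.62 below the median of all genes. The call was also lost when mutant 1, 3 or 4 or control 2, 3 or 4 was left out (adjusted p up to 0.127), and when both squamous libraries were (0.195). Without mutant 2, 3 of the 11 were called higher and 3 lower, where 15.2% of all genes were called higher and 18.3% lower.

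Of 7 other TEAD factors and VGLL cofactors 5 were tested, since Vgll1 and Vgll2 had 0 reads in every library. With edgeR 0 of the 5 were called, where 20.2% of all genes were, and 1 had an unadjusted p under 0.05. DESeq2 and limma-voom called 1 each, where DESeq2 called 24.2% of all genes and limma-voom 5691 of 15862. Tead4, a further TEAD factor, had 1.70, 6.22, 2.63 and 3.90 CPM in mutants, against 1.00, 0.922, 2.17 and 0.897 CPM in controls. The control values rest on few reads, 14 to 34 per library. Mutant 1 lay below control 3, and the other mutants above every control. Its log2 fold change was 1.53 (SE 0.489, adjusted p = 0.0587), and 1.13 (adjusted p = 0.0551) without mutant 2. It passed without mutant 1 (1.76, adjusted p = 0.0407). Vgll3 and Tead2 had log2 fold changes of 1.37 and 0.37 with all libraries and of -0.14 and -0.38 without mutant 2, and neither passed in either fit.

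Of 16 other target genes, mouse counterparts of a published YAP and TAZ target list from human tumours, 2 were called higher and 0 lower (9.39% and 10.8% of all genes). Their median log2 fold change was 0.39, against 0.07 for all genes. Without mutant 2 it was 0.17, against 0.02 for all genes. Myof, a membrane-repair ferlin, had 153, 131, 133 and 157 CPM in mutants, against 43.4, 36.6, 39.1 and 52.8 CPM in controls. Each mutant had more than any control, and mutant 2 was the lowest of the mutants. Myof rose with a log2 fold change of 1.74 (SE 0.140, adjusted p = 0.000604), and 1.78 without mutant 2 (adjusted p = 8.66e-06), and was called in all 8 fits that left out 1 library. Nuak2, an AMPK-related kinase, had 5.85, 20.4, 4.87 and 6.99 CPM in mutants, against 3.52, 3.16, 3.19 and 2.99 CPM in controls. It rose with a log2 fold change of 1.57 (adjusted p = 0.0475), and 0.88 without mutant 2 (adjusted p = 0.00958), and the call was lost when mutant 4 or any 1 control was left out (adjusted p up to 0.114), and when both squamous libraries were (0.0891). Igfbp3, a secreted binding protein of insulin-like growth factors, had 85.7, 614, 95.7 and 108 CPM in mutants, against 52.1, 46.3, 76.8 and 60.7 CPM in controls. Its groups did not overlap, and it did not pass with all libraries (log2 fold change 1.94, SE 0.671, adjusted p = 0.0748), whereas without mutant 2 it did (0.71, SE 0.162, adjusted p = 0.00656). Without mutant 2, 3 of the 16 were called higher and 2 lower, where 15.2% of all genes were called higher and 18.3% lower. On column totals 12 were called higher and 0 lower, where 59.5% of all genes were called higher and 4.55% lower.

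**Figure D5:**
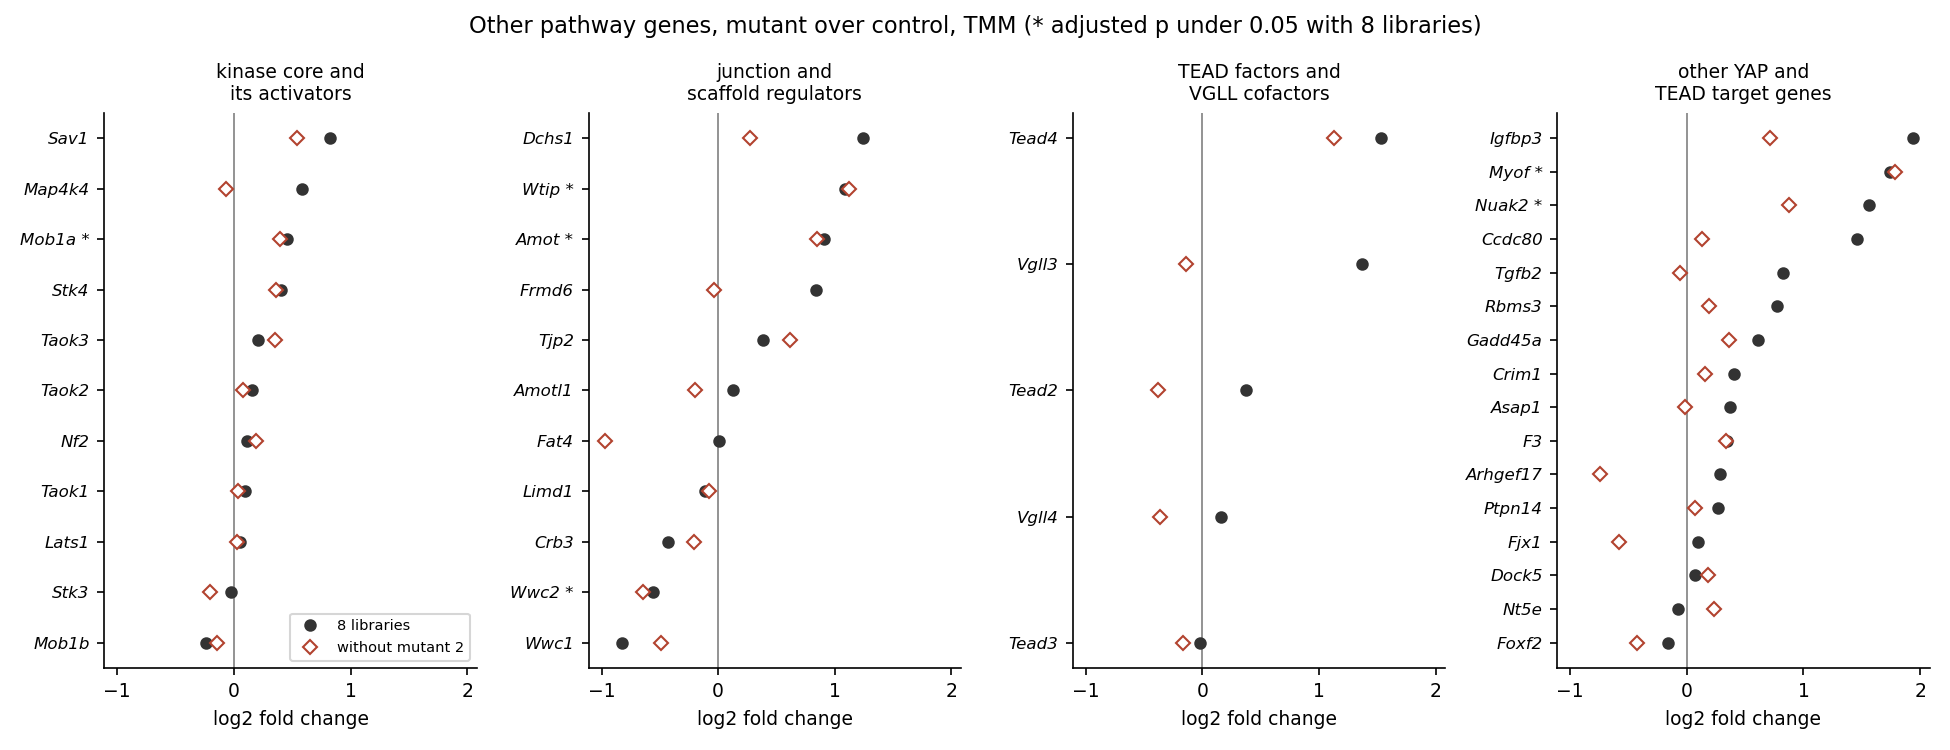
Log2 fold change, mutant over control (horizontal axes), of the other pathway genes in 4 lists, with all 8 libraries (filled) and without mutant 2 (open). Wtip, Amot and Myof keep nearly the same value without mutant 2, and Vgll3 is at 1.37 with that library and at -0.14 without it.

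The genes whose pattern over the 8 libraries was nearest to that of Yap1 were Gna13, Srsf1 and Hnrnpa2b1, at distances of 0.12, 0.12 and 0.12 in centred log2 CPM among 13589 protein-coding genes. Hnrnpa2b1 averaged 569 ± 29.7 CPM in mutants and 566 ± 11.6 CPM in controls (SD, n = 4 each). Nearest to Cyr61 were Treml2, Ulbp1 and Cd300lb, at the larger distances of 0.63, 0.75 and 0.81. Each of these 3 was also high in mutant 2, with 9.65, 12.9 and 12.3 CPM there. In controls they averaged only 0.210, 0.966 and 0.659 CPM, where the floor of 3 counts was on average 0.189 CPM.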

How the data were processed

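For each gene the values are read counts, not normalized, and FPKM, both as deposited by the authors. The submitters' processing notes name CASAVA, fastp, STAR 2.5 and featureCounts, without roles. Per the labels' protocols, tissue was stored in RNAlater, RNA was isolated with Trizol, and a NEBNext Ultra kit gave polyA libraries. The build and strand setting of the counting were not given in the sources used here. Reads of overlapping genes therefore cannot be told apart: 5 of the 10 genes have an annotated gene on the opposite strand (Yap1, Wwtr1, Tead1, Lats2 and Ctgf), and none of those had over 28 counts in a library. On the same strand, the protein-coding Gm49361 overlaps Lats2 and the microRNA gene Gm44462 overlaps Tead1, each with 0 counts in every library. These counts do not show how shared reads were assigned. Coordinates are those of the count table. Of its 54532 genes 54409 are in GENCODE M21 (GRCm38), 53499 of them with the same start and end, and so are 9 of the 10 genes, Ankrd1 differing.

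Columns were matched to samples by name, with SCI read as SC1. Every pair of libraries within a group differed by more than counting error (chi-square of at least 15.4 per degree of freedom). Genes kept by filterByExpr were scaled with TMM and tested with edgeR 4.0.16 (R 4.3.3), robust quasi-likelihood, mutant over control, Benjamini-Hochberg adjustment over all genes tested, threshold 0.05. This test gave every adjusted p-value for which no other tool is named. The SE is the coefficient over the square root of F. CPM means have n = 4. The fits were first tested on simulated data. Floors of 3 counts cover counting error only. Ratios have 0.5 added to each count, and distances use genes with a mean of at least 1 CPM.

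Named are the 10 genes, Lats1, and, from each of 4 lists of other pathway genes, the 3 with the smallest p plus, where any passed in the rarer direction, the first of those. The 10 genes, the lists and the tests were chosen with earlier results of these data known. Alternatives were column totals, RLE factors, DESeq2 1.42.0, limma-voom with sample weights (limma 3.58.1), no filter or at least 1 CPM in 4 libraries, a block for the replicate number, each library left out, both squamous libraries left out, and a threshold of 0.01. For FPKM, limma-trend was run on log2 values with a pseudocount of 1 or 0.1 for genes averaging at least 0.5 FPKM, and with a pseudocount of 1 for all genes. Library sizes implied by the deposited FPKM were 1.00 to 1.01 times the TMM ones, so the FPKM fits share that scaling. Column totals without mutant 2 were added after seeing the data.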

Additional observations from a re-analysis of the deposited data

Results flagged for a closer look

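A total of 13 values stood far from the other libraries of their group (a gap over 0.829 of the group's range, Dixon's limit for 4 libraries). In all, 52 groups were looked at, 13 were flagged and 9 of them were in mutant 2. For independent, normally distributed groups chance flags about 1 in 20. The 52 groups share the same libraries, so the count of flags cannot be read against that rate. Mutant 2 had 83.4 CPM of Wwtr1, where the other mutants had 14.7 to 19.1 CPM. It had 35.5 CPM of Lats2 (others 8.62 to 11.4), 127 CPM of Amotl2 (others 29.5 to 42.6) and 138 CPM of Cyr61 (others 15.4 to 29.6). It also had 30.7 CPM of Vgll3 (others 2.17 to 5.31), 23.7 CPM of Tead2 (others 5.28 to 7.97), 20.4 CPM of Nuak2 (others 4.87 to 6.99) and 614 CPM of Igfbp3 (others 85.7 to 108). Its log2 ratio of Wwtr1 to Yap1 was 0.019, where the other mutants had -2.45 to -2.12. Wtip was high in mutant 4, at 95.9 CPM against 62.4 to 67.8 CPM in the other mutants, and low in control 4, at 29.9 CPM against 35.1 to 36.1 CPM in the other controls. Tead4 was high in control 3, one of the libraries with squamous transcripts, at 2.17 CPM against 0.897 to 1.00 CPM in the other controls. The log2 ratio of Ctgf to Cyr61 was low in control 2, at -0.54, against 0.42 to 0.61 in the other controls.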

How the results depend on the processing

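With TMM, edgeR called 3208 genes. The count was 10165 with column totals (9443 higher and 722 lower), 11480 with column totals without mutant 2, 4910 with DESeq2, 5691 with limma-voom, 1410 without both squamous libraries and 1047 at an adjusted p of 0.01. Leaving out 1 library gave 1717 (without control 1) to 5400 (without mutant 2). Of the 9 genes tested 1 was called with TMM (20.2% of all genes) and 3 with DESeq2 (24.2%). Column totals gave 7 (64.1% of all genes), and 7 without mutant 2 (71.2%). With 1 library left out 0 to 2 were called (2 or 3 at an unadjusted p under 0.05 where it was 0). The fits with 0 left out mutant 4 or any 1 control, and called 1717 to 2200 of 16170 to 16354 genes tested. At an adjusted p of 0.01, 0 were called, and 0 without both squamous libraries (1410 of all 16005 genes). There 3 and 2 of them had an unadjusted p under 0.05. The 3 FPKM fits with limma-trend also called 0, where 1 to 2 had an unadjusted p under 0.05. Those fits called 2741 and 2845 of 14866 genes, and 2488 of 29210 without a filter. Same-numbered libraries were not shown to be paired (correlations of their deviations -0.09 to 0.06, and control 1 alone best matched by its own number). With the replicate number as a block 1824 genes were called (11.5% of all genes). Of the 9 genes tested 1 was, Cyr61 (log2 fold change 1.40, adjusted p = 0.0423) in place of Tead1 (0.70, adjusted p = 0.112). Mob1a, Amot, Wwc2 and Nuak2 were not called with the block (adjusted p 0.0905 to 0.118). Wwc2 changed sign on column totals, to 0.15 with all libraries and 0.051 without mutant 2. Over the log2 fold changes of the named genes, 353 values stayed on their side of the threshold, 35 passed it newly, 48 no longer passed, and 2 are those of Wwc2. Of the 353, 16 changed sign without a call in either fit (Lats2, Amotl2, Axl, Tead2, Vgll3 and Yap1). DESeq2 gave no adjusted p for Wwtr1 and Igfbp3. Causes were not tested. Depth limits Ankrd1, which did not pass the filter on low counts.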
